A study of Mus musculus with 24 samples.

Results

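The genes of the constitutive proteasome were followed in mouse CD4+ T cells during their first day of activation. They were taken as every gene of the deposited expression table named Psma to Psmg with a number, without Psmb8, Psmb9 and Psmb10, the catalytic subunits that interferon induces. This gave 45 of the 22009 named genes. Of these, 43 had a mean of at least 1 RPKM (a read count scaled to the length of the transcript and to the mapped reads of the library) over the time course and were tested. The other 2 were Psma8, an alpha subunit of male germ cells, and Psmb11, the beta subunit of the thymic cortex.

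All cells were CD4+ T cells taken from the spleens of adult wildtype C57BL/6 mice by magnetic negative selection, pooled from 6 mice, and the methods name them naive whereas the labels call them purified. The 2 resting libraries were from unstimulated cells, and their titles carry another tag than those of all the cultures. What the tag stands for is not given, so in every comparison with rest it cannot be told apart from activation. Th0 cultures received anti-CD3 and anti-CD28, Th1 cultures had in addition IL-12 and an antibody to IL-4, and Th2 cultures IL-4 and antibodies to IL-12 and IFN-γ. Each culture was sequenced once at 4, 8, 12, 16, 20 and 24 h, which gave 18 culture libraries. After 16 h of stimulation, cells of a skewing condition that the labels do not give were kept in actinomycin, a blocker of transcription, for 0, 1, 2 and 4 h, which gave another 4 libraries. A time point was therefore compared with resting cells over 1 library of each of the 3 conditions, and the p-values measure the spread between these libraries and not between mice.

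The 26S proteasome degrades proteins marked with ubiquitin. Its core is a barrel of alpha and beta rings, in which the beta subunits Psmb6, Psmb7 and Psmb5 cut the chain, and its regulatory particle has a ring of ATPases (Psmc) that unfolds the substrate and non-ATPase subunits (most of Psmd) that bind and deubiquitinate it. Dedicated chaperones assemble both parts, other caps (Psme) can replace the regulatory particle, and the transcription factor NFE2L1 raises many subunit genes together through antioxidant response elements. In T cells that leave rest, protein synthesis and turnover both increase.

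Psma8, Psmb1, Psmb2, Psmb7, Psmc3, Psmd3, Psmd7 and Psmg2 had no promoter window at hand and were not searched. For the other 37 of the 45 genes, sequences 250 bases long upstream of the start came from RefSeq, on GRCm38.p6. These windows are shown for the 4 subunits of the 26S particle with an antioxidant response element (TGACNNNGC), because that element is the textbook link between subunit genes. Capitals mark matches on either strand to the motifs searched, which here are the antioxidant response element and, in Psmc6 and Psmd12, the ETS site CCGGAAG as well.
Psmb5, chr14:54617996-54618245, minus strand: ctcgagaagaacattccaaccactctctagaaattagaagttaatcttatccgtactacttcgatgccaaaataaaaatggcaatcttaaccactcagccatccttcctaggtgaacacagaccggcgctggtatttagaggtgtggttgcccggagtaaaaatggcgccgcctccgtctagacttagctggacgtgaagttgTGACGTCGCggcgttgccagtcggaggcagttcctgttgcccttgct
Psmb6, chr11:70525107-70525356, plus strand: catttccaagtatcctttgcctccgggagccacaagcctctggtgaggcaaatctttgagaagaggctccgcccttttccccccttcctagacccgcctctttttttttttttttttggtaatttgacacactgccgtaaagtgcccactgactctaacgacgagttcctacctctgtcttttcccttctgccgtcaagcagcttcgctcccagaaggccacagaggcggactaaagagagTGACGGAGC
Psmc6, chr14:45329574-45329823, plus strand: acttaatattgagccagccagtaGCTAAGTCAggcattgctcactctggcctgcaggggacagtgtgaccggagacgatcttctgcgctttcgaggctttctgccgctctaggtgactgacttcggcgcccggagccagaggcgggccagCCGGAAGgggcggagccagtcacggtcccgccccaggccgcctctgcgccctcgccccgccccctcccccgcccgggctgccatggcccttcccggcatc
Psmd12, chr11:107479278-107479527, plus strand: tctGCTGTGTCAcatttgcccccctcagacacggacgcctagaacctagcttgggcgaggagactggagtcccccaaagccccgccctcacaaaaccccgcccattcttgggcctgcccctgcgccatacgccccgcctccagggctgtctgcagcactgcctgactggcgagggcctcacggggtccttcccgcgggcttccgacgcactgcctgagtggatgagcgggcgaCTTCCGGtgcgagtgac

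The element lay 47 to 39 bases before the start in Psmb5 (TGACGTCGC) and 9 to 1 bases before it in Psmb6 (TGACGGAGC). In Psmc6 (GCTAAGTCA) and Psmd12 (GCTGTGTCA) it lay on the other strand, 227 to 219 and 247 to 239 bases before the start. It was found in 5 of the 37 windows (13.5%), the other being Psmd9, against 11.5% of the windows of all 27025 genes and 13.97% of those of the 8303 genes that were tested and had a window. The ETS site was in 12 of 37 windows (32.4%), in Psma6, Psmc1, Psmc2, Psmc6, Psmd2, Psmd4, Psmd6, Psmd11, Psmd12, Psme3, Psme4 and Psmg1, against 7.83% of all genes and 17.4% of the tested ones. The CCAAT box (CCAAT) was in 13 of 37 windows (35.1%) against 37.5% of all and 41.3% of the tested genes, and the E-box CACGTG in 3 (8.11%) against 6.86% and 10.1%. The NRF1 site was in 1 window (2.70%) against 0.877% and 2.06%, the interferon-gamma activated sequence TTCNNNGAA in 1 (2.70%) against 8.13% and 7.27%, and the interferon-stimulated response element in 3 (8.11%) against 3.46% and 3.42%. Overlapping matches were counted under each motif. These matches are letters in a window and no measure of binding.

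The libraries had 17512385 to 33017133 mapped reads, as recovered from the steps between RPKM values. The 5 T cell markers (Cd3e, Cd3g, Cd4, Cd5, Lck) summed to 1555 to 1570 RPKM in resting libraries, 911 to 992 at 4 h and 956 to 1295 later, and none was at 0. Other cells were present too. Of 8 red cell genes 6 were in the table, and their sum ran from 38691 to 42234 RPKM in resting libraries and 29312 to 47024 at 4 h to between 141 and 28434 RPKM later. Of 6 monocyte and macrophage symbols 5 were in the table, with sums of 338 to 342 RPKM at rest, 23.3 to 43.3 at 4 h and 4.25 to 11.7 later. Sums over the 4 B cell markers were 41.5 to 48.5, 23.8 to 30.8 and 7.43 to 28.8 RPKM, and over the 2 NK cell markers 26.7 to 29.2, 9.26 to 17.5 and 3.28 to 13.8. No marker of these lists was at 0 in every library of a group. These cells moved with every comparison against resting cells below, and their part in it was not tested, except that the counts were repeated without haemoglobin genes. Fewer cells of a type and less RNA per cell cannot be told apart in such bulk libraries.

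Most proteasome genes rose on activation, and the median rise at 12 h was near that at 24 h. The median change of the 43 tested genes against resting cells was 1.24-fold at 4 h, 1.78-fold at 8 h, 2.23-fold at 12 h, 2.22-fold at 16 h, 2.36-fold at 20 h and 2.35-fold at 24 h, whereas the median over all 10897 genes tested lay between 0.953-fold and 0.991-fold. Every one of the 31 subunits of the 26S particle was above both resting libraries in each of the 15 culture libraries from 8 to 24 h. At single time points from 8 to 24 h, 29.2% to 41.0% of all tested genes had every culture above both resting libraries. The share of all genes over the 15 libraries together was not computed. By limma with Benjamini-Hochberg adjustment and a 2-fold limit, 0 of 43 genes had risen at 4 h (background 2.61% of all genes), 14 at 8 h (6.42%), 31 at 12 h (10.7%), 30 at 16 h (11.2%), 32 at 20 h (12.9%) and 33 at 24 h (12.7%). No member fell by 2-fold at 24 h, against 17.4% of all genes. By the adjusted p alone 12 genes had risen at 4 h (11.5% of all genes) and 40 at 24 h (31.6%), and 1 had fallen at 24 h (33.6%), namely Psmf1. The count at 8 h was 6 without the Th2 cultures and 7 with quantile normalisation.

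**Figure D1:**
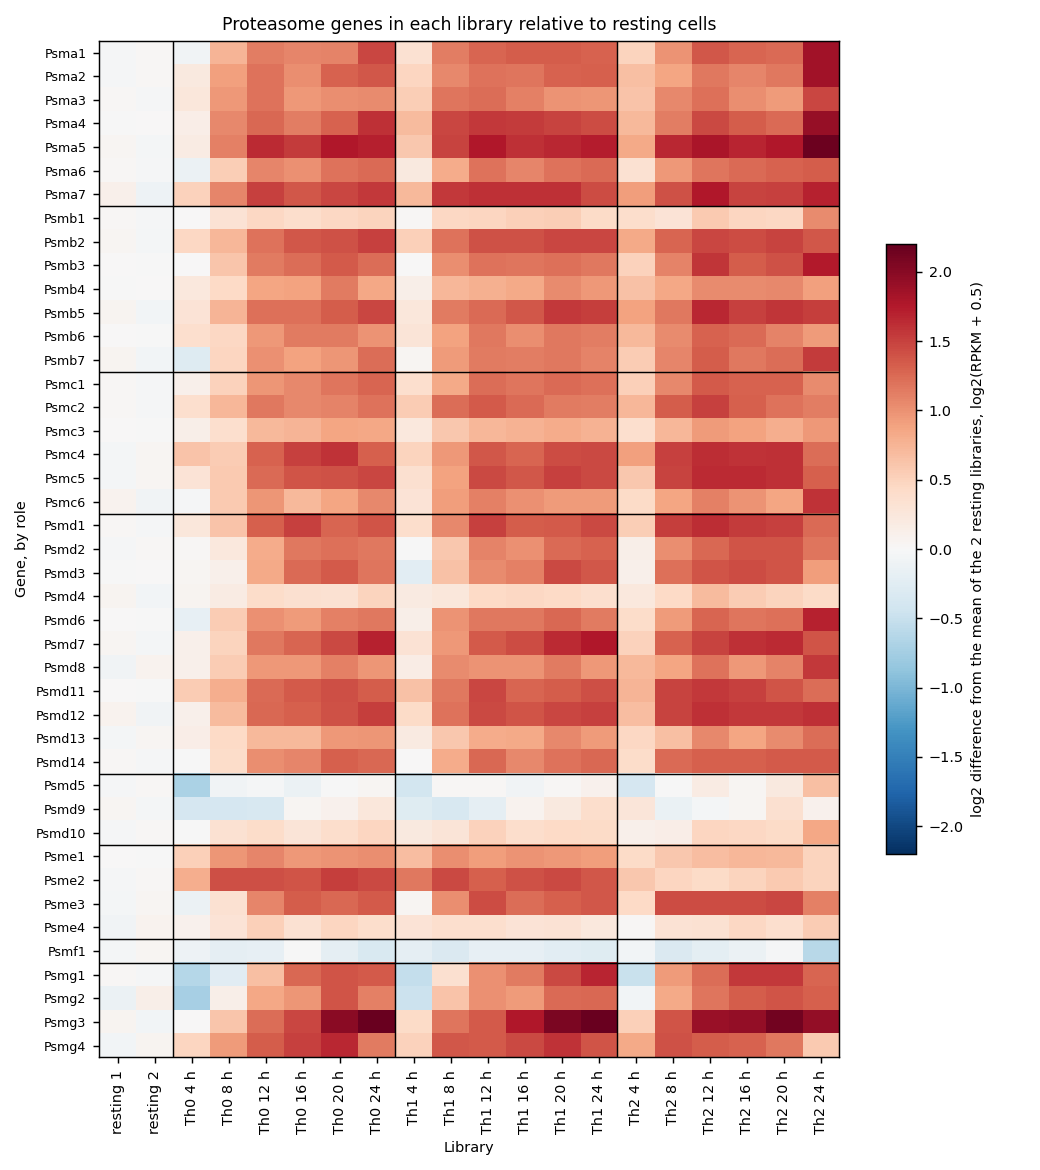
Heat map of the 43 tested proteasome genes (rows, grouped by role) in the 20 libraries of the time course (columns), coloured by the difference in log2(RPKM + 0.5) from the mean of the 2 resting libraries, red for higher and blue for lower. Most rows turn red between 4 and 12 h in all 3 conditions, while Psmf1, Psmd5 and Psmd9 stay pale or blue in most libraries.

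All 7 tested alpha subunits passed 2-fold at 24 h, with a median of 2.90-fold. Psma5, which gained most, had 50.8 and 47.6 RPKM at rest. It reached 55.9, 106.8, 153.9, 144.2, 167.3 and 162.0 RPKM in Th0 from 4 to 24 h. In Th1 it had 74.1, 139.0, 167.3, 151.5, 156.5 and 163.4 RPKM, and in Th2 87.5, 157.2, 171.9, 158.6, 167.5 and 220.9 RPKM. Every culture was above both resting libraries, and the 3 conditions lay close together from 12 to 20 h. Its log2 change at 24 h was 1.86 ± 0.18 (SE, n = 3 and 2, limma adjusted p = 2.24e-07). Psma3, the alpha subunit with the smallest rise, had the highest RPKM of the 26S subunits at rest, at 138.8 and 132.5, and 279.2, 265.1 and 378.5 RPKM in Th0, Th1 and Th2 at 24 h. Its log2 change at 24 h was 1.16 ± 0.14 (limma adjusted p = 2.62e-06). It lost the 2-fold limit with quantile normalisation (0.87).

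Of the 7 tested beta subunits 5 passed 2-fold at 24 h, with a median of 2.44-fold. The 3 constitutive catalytic subunits were among them. Psmb5, the chymotrypsin-like subunit, had 52.6 and 48.6 RPKM at rest. Its values from 4 to 24 h were 62.2, 84.8, 118.0, 118.3, 128.4 and 141.2 RPKM in Th0, 60.0, 112.3, 121.3, 130.4, 149.8 and 146.3 in Th1, and 93.7, 114.1, 160.2, 145.1, 150.9 and 146.3 in Th2. All lay above rest, Th2 was the highest at 4 h, and the conditions met at 24 h, where the mean was 144.6 ± 2.94 RPKM (SD, n = 3) and the log2 change 1.51 ± 0.18 (SE, limma adjusted p = 3.30e-06).

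Psmb6, the caspase-like subunit, had 81.4 and 80.9 RPKM at rest. It had 104.9, 111.7, 158.2, 179.4, 180.7 and 161.4 RPKM in Th0, 98.7, 150.8, 180.9, 165.9, 180.9 and 177.2 in Th1, and 134.0, 167.0, 199.3, 192.3, 172.5 and 156.1 in Th2. Its log2 change at 24 h, 1.02 ± 0.16 (limma adjusted p = 3.28e-05), was just over the limit and fell under it with quantile normalisation (0.78), without haemoglobin genes (0.92) and without the Th1 cultures (0.96). Psmb7, the trypsin-like subunit, had 92.2 and 85.2 RPKM at rest. It had 72.9, 122.8, 179.4, 165.0, 174.7 and 208.0 RPKM in Th0, 91.3, 170.5, 196.0, 194.6, 198.2 and 189.7 in Th1, and 131.0, 188.0, 223.0, 199.2, 207.8 and 257.4 in Th2. At 4 h it lay below both resting libraries in Th0 and above them in Th2, and from 8 h every culture was above rest. Its log2 change at 24 h was 1.28 ± 0.21 (limma adjusted p = 6.51e-05). Psmb1 rose least of the ring, by 0.65 ± 0.15 on the log2 scale (limma adjusted p = 0.00129), and its values were 131.9 and 128.4 RPKM at rest and 182.7, 175.2 and 268.8 RPKM in Th0, Th1 and Th2 at 24 h.

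In the regulatory particle, 5 of the 6 base ATPases passed 2-fold at 24 h (median 2.28-fold), from 1.41 ± 0.19 on the log2 scale for Psmc5 (limma adjusted p = 1.15e-05) down to 0.86 ± 0.11 for Psmc3 (7.60e-06). Psmc3 had 101.4 and 101.3 RPKM at rest and 182.3, 173.5 and 197.6 RPKM in Th0, Th1 and Th2 at 24 h. Psmc5 had 52.3 and 56.1 RPKM at rest and a mean of 144.7 ± 8.72 RPKM at 24 h (SD, n = 3). Of the 11 non-ATPase subunits 10 passed it (median 2.45-fold). Psmd7, the inactive partner of the deubiquitinase Psmd14, rose most, from 41.7 and 39.4 RPKM at rest to 131.5, 137.9 and 106.6 RPKM in Th0, Th1 and Th2 at 24 h, a log2 change of 1.61 ± 0.19 (limma adjusted p = 2.59e-06). The exception was Psmd4, a ubiquitin receptor, with 94.9 and 86.9 RPKM at rest and 127.2, 117.1 and 121.3 at 24 h, and its log2 change of 0.42 ± 0.11 (limma adjusted p = 0.00390) passed only the p threshold.

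The chaperones of the 2 parts of the particle are given apart. The regulatory-particle chaperones Psmd5, Psmd9 and Psmd10 had a median change of 1.20-fold at 24 h and 0 of 3 passed 2-fold. Psmd10 (gankyrin) rose by 0.58 ± 0.12 (limma adjusted p = 0.000522) and Psmd9, with a mean of 8.91 RPKM at rest, had a log2 change of 0.24 ± 0.16 at 24 h and an adjusted p of 0.192. Psmd5 was the one member lower at 4 h by the adjusted p alone (20.2% of all genes), with 30.9 and 31.9 RPKM at rest and 19.2, 23.5 and 24.3 in Th0, Th1 and Th2, a change of -0.49 ± 0.15 on the log2 scale (limma adjusted p = 0.0228). It was back at 29.8, 32.0 and 31.1 RPKM at 8 h. The core assembly chaperones Psmg1 to Psmg4 instead all passed 2-fold at 24 h, with a median of 2.52-fold. Psmg3 had the largest change of all 43 genes, from 8.9 and 8.2 RPKM at rest to 40.3, 40.5 and 34.1 RPKM in Th0, Th1 and Th2 at 24 h. Its log2 change was 2.10 ± 0.22 (limma adjusted p = 8.03e-07), and it climbed in Th0 through 8.7, 13.3, 20.8, 24.5, 35.4 and 40.3 RPKM. Psmg4 rose least, with 15.6 and 17.1 RPKM at rest, and its 24 h values of 36.6, 43.4 and 24.7 RPKM in Th0, Th1 and Th2 were apart. The log2 change of 1.03 ± 0.20 (limma adjusted p = 0.000319) was under 1 without the Th0 cultures (0.98), the Th1 cultures (0.86), resting replicate 1 (0.97) or the haemoglobin genes (0.94).

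The 2 subunits of the interferon-induced cap PA28, Psme1 and Psme2, were the most abundant members per length at rest (281.7 to 283.5 and 218.9 to 227.3 RPKM). Psme2 was at 390.0, 497.3 and 335.2 RPKM in Th0, Th1 and Th2 by 4 h, which gave the largest 4 h change of any member, 0.85 ± 0.40 on the log2 scale, and with the spread between conditions its adjusted p was 0.113. Psme3 (PA28 gamma, of the nucleus) rose by 1.27 ± 0.23 at 24 h (limma adjusted p = 0.000159), and Psme4 (PA200), with 25.4 and 28.4 RPKM at rest and 35.2, 31.8 and 39.6 RPKM at 24 h, by 0.39 ± 0.11 (0.00617), under 2-fold. Psmf1 (PI31, a core-binding protein) was the only member lower at 24 h by the adjusted p. It had 21.7 and 23.0 RPKM at rest and 17.6, 18.4 and 14.4 in Th0, Th1 and Th2 at 24 h, a log2 change of -0.41 ± 0.11 (limma adjusted p = 0.00392). A near copy, Psme2b, is counted beside Psme2 and may share its reads, so Psme2 values are uncertain to that extent.

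The levels of the subunits spanned 2.86-fold (at 20 h, the narrowest) to 3.90-fold (at 4 h, the widest) within a group. At 24 h the span was 3.40-fold. Per length, the 31 subunits of the 26S particle ran from 36.3 (Psmd12) to 135.7 RPKM (Psma3) at rest, a range of 3.73-fold around a median of 68.7 RPKM, and from 102.0 (Psmd12) to 291.3 RPKM (Psma7) at 20 h, a range of 2.86-fold around a median of 179.5. The median over all tested genes was 16.1 RPKM at rest and 15.2 RPKM at 20 h. Their share of all summed RPKM went from 0.398% at rest to 0.519% at 4 h, 0.753% at 8 h and 0.952% at 24 h.

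The steepest step was from 4 to 8 h. The median change in it was 1.48-fold, against 0.969-fold over all genes, and 31 of 43 members rose by the adjusted p alone (15.8% of all genes), although 0 by 2-fold (2.95%). All 4 core chaperones did, led by Psmg2 at 0.95 ± 0.18 and Psmg1 at 0.90 ± 0.22 on the log2 scale (limma adjusted p = 0.00238 and 0.00760). Psmg2 had 19.4 and 23.2 RPKM at rest, 12.6, 15.1 and 20.3 in Th0, Th1 and Th2 at 4 h, and 23.2, 33.0 and 38.4 at 8 h, so Th0 and Th1 were below rest at 4 h. Without the Th1 cultures the count of 31 was 0, and without the Th0 cultures 2 members passed 2-fold. From 8 to 12 h the median change was 1.23-fold and no member passed the adjusted p (2.05% of all genes did, and 18 members rose at an unadjusted p under 0.05, against 8.47% of all genes). In the 3 later steps the medians lay between 0.983-fold and 1.04-fold, and no member was called by limma (0.358%, 0.606% and 0.78% of all genes). At an unadjusted p under 0.05 only 2 of 43 members fell, both from 20 to 24 h, against 4.54% of all genes in that step.

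The question of the skewing conditions is whether the same genes differed between Th0, Th1 and Th2. The 6 libraries of a condition were successive time points of cells from the same pool and not biological replicates. The p-values between conditions therefore measure only the spread between these libraries. Between Th2 and Th0 members were higher in Th2, mostly by little. At a 2-fold limit 0 of 43 were called in any pair of conditions, where 2.01% of all genes were for Th2 and Th0, 1.96% for Th2 and Th1, and 0.494% for Th1 and Th0. By the adjusted p alone 24 members were higher in Th2 than in Th0 (12.9% of all genes) and 2 lower (16.7%). The median difference was 0.26 on the log2 scale, 1.20-fold, against 1.00-fold over all genes. Of the 43 members 15 were higher at all 6 time points and 33 at 5 or 6. The share of all genes with such signs was not computed, so these 2 counts have no background. The 24 were 9 without 12 h, 10 without 8 h, 11 without 4 h and 14 without 16 h, 6 over 12 to 24 h alone and 7 in a fit of these 2 conditions only.

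The median difference was higher at the early time points. Th2 exceeded Th0 in 40 of 43 members at 4 h, with a median ratio of 1.31, and in 37 at 8 h, with 1.34. Over all genes 45.1% and 50.3% were higher in Th2 at these times. The 8 h libraries of Th0 and Th2 stood apart, with SDs over genes of 0.55 and 0.51 on the log2 scale from the other cultures of their time, against 0.22 to 0.43 for the other 16 libraries. Haemoglobin genes took 4.66% of summed RPKM in Th0 and 2.51% in Th2 at 8 h, and 5.83% and 7.36% at 4 h. The count of 24 above was 25 without haemoglobin genes and 10 without 8 h. At 20 h Th2 exceeded Th0 in 31 of 43 members with a median ratio of 1.04 (49.6% of all genes). At 24 h it did so in 24 of 43 with 1.04 (41.0% of all genes). Psmd2, a large scaffold of the base, was such a case at 8 h with 101.2, 129.4 and 174.1 RPKM in Th0, Th1 and Th2, against 199.0, 203.9 and 225.2 at 20 h. Psmd3, a lid subunit, had 53.4, 77.8 and 116.1 RPKM at 8 h and 127.1, 136.8 and 130.8 at 20 h. Both were picked after their values were seen. Tested as a difference in slope over time, 0 of 43 members changed between Th2 and Th0 (0.0373% of all genes did, smallest adjusted p = 0.643 by limma). At an unadjusted p under 0.05, 2 of 43 members did, against 7.56% of all genes. The narrowing was therefore not shown for any one gene. Without 4 h 4 members passed (7.68% of all genes did), namely Psmd3, Psmd7, Psme3 and Psmg3, with slopes of -0.06 to -0.08 log2 units per hour.

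Psmb7 had the largest difference among the members higher in Th2, at 0.43 ± 0.09 on the log2 scale (SE, 6 libraries a condition, limma adjusted p = 0.00212, higher in Th2 at 6 of 6 time points). Psmg3 followed with 0.39 ± 0.11 (0.0156, 5 of 6). Against Th1 only Psmb3 was higher in Th2 by the adjusted p (3.49% of all genes), by 0.31 ± 0.08 (0.0219, 6 of 6). The values of Psmb3 at 8 h were 127.6, 170.3 and 179.3 RPKM in Th0, Th1 and Th2. Between Th1 and Th0 no member was called in either direction by limma (0.522% of all genes higher, 1.75% lower). At an unadjusted p under 0.05, 9 members were higher, against 6.19% of all genes. The 3 largest differences were Psma4 at 0.28 ± 0.10 (limma adjusted p = 0.177), Psmg3 at 0.25 ± 0.11 (0.276) and Psmg1 at 0.22 ± 0.13 (0.397).

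**Figure D2:**
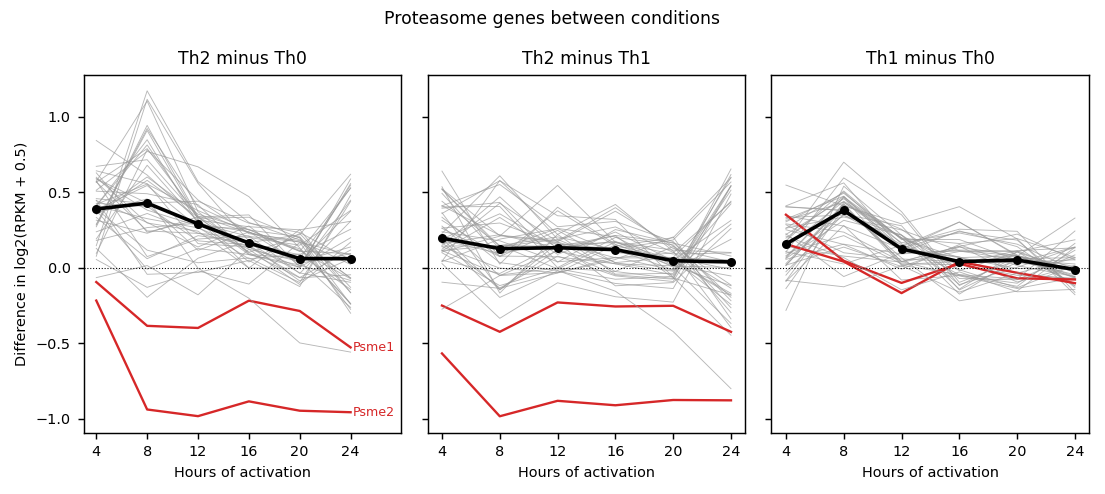
Difference in log2(RPKM + 0.5) between 2 conditions at each time point (hours of activation) for the 43 tested genes (thin grey lines), with Psme1 and Psme2 in red and the median in black. The median of Th2 minus Th0 goes from 0.39 at 4 h and 0.43 at 8 h to 0.06 at 24 h, while Psme1 and Psme2 stay below zero at every time in both panels with Th2.

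Psme1 and Psme2 went the other way and were the 2 members lower in Th2 than in both other conditions (against Th1, 8.71% of all genes were lower). Psme2 had 218.9 and 227.3 RPKM at rest. From 4 to 24 h it had 390.0, 594.4, 593.4, 582.1, 644.7 and 609.5 RPKM in Th0 and 497.3, 613.2, 553.0, 592.7, 613.7 and 577.1 in Th1, but only 335.2, 309.7, 299.8, 314.8, 334.0 and 313.6 in Th2. The Th2 cultures thus lay between the resting cells and every Th0 and Th1 culture. The difference was -0.82 ± 0.09 against Th0 (limma adjusted p = 7.36e-06) and -0.85 ± 0.09 against Th1 (5.87e-06), lower at 6 of 6 time points. Psme1 had 281.7 to 283.5 RPKM at rest, 405.0 to 598.5 in Th0, 451.3 to 572.9 in Th1 and 379.0 to 469.8 in Th2. Its difference was -0.32 ± 0.07 against Th0 and -0.31 ± 0.07 against Th1 (limma adjusted p = 0.00266 and 0.00525), again lower at 6 of 6. The count of members lower in Th2 by the adjusted p was 2 in both comparisons under every alternative tried.

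The interferon-induced catalytic subunits, which replace the constitutive ones in the immunoproteasome, give the comparison within the catalytic ring. Psmb9 takes the place of Psmb6, Psmb10 of Psmb7 and Psmb8 of Psmb5. All 3 were lower in Th2 than in Th0 by the adjusted p, at 0.352-fold (Psmb9), 0.511-fold (Psmb8) and 0.558-fold (Psmb10). Against rest Psmb10 fell by 1.24 ± 0.40 on the log2 scale at 24 h (limma adjusted p = 0.0116). The others were not called, with Psmb9 at -0.61 (limma adjusted p = 0.422) and Psmb8 at 0.23 (limma adjusted p = 0.658). At rest the ratio of Psmb6 to Psmb9 was 0.956 and 0.881. From 4 to 24 h it was 0.639, 0.765, 1.82, 2.43, 2.16 and 1.95 in Th0, 0.720, 1.76, 3.30, 2.14, 2.13 and 2.31 in Th1, and 1.47, 4.45, 7.21, 7.34, 6.68 and 5.17 in Th2. In this pair the constitutive subunit had a lower RPKM than its counterpart in resting cells and a higher one in every condition from 12 h on. The ratio of Psmb7 to Psmb10 was above 1 already at rest (1.45 and 1.29) and ran from 1.06 to 6.60 in Th0, 1.46 to 7.13 in Th1 and 2.30 to 11.8 in Th2. The ratio of Psmb5 to Psmb8 was 0.386 and 0.342 at rest and stayed below 1 in Th0 (0.343 to 0.671) and Th1 (0.348 to 0.999), while in Th2 it ran from 0.605 at 4 h to 1.85 at 12 h.

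The ratios were compared by the exact sign-flip permutation test over the 6 time points. That of Psmb6 to Psmb9 was 3.28 times higher in Th2 than in Th0 (log2 difference 1.71 ± 0.19, SE). It was 2.52 times higher than in Th1 (1.33 ± 0.12), each at 6 of 6 time points. For Psmb7 to Psmb10 the figures were 2.42 times (1.27 ± 0.18) and 1.77 times (0.83 ± 0.08), and for Psmb5 to Psmb8 2.48 times (1.31 ± 0.12) and 1.91 times (0.94 ± 0.09). Each of these 6 had a two-sided p of 0.0312, the smallest that the 64 sign patterns can give, and an adjusted p of 0.0352 over the 9 comparisons of this exact permutation test. Th1 exceeded Th0 in the ratio of Psmb7 to Psmb10 (log2 difference 0.45 ± 0.20) at 6 of 6 time points with the same p. The same held for Psmb5 to Psmb8 (0.37 ± 0.16), and for Psmb6 to Psmb9 at 4 of 6 (exact permutation p = 0.188). The first 2 gaps were widest at 8 and 12 h. Psmb7 to Psmb10 was 1.67 in Th0 and 3.82 in Th1 at 8 h, but 4.58 and 4.62 at 16 h and 6.60 and 6.67 at 24 h. Psmb5 to Psmb8 was 0.384 and 0.801 at 8 h, but 0.343 and 0.348 at 4 h. The Th0 library at 8 h was among those that stood apart. With 1 time point left out the smallest p is 0.0625, so these fits have no call to keep. Time points of a series may share a culture, so these p-values too measure only the spread between libraries. 

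**Figure D3:**
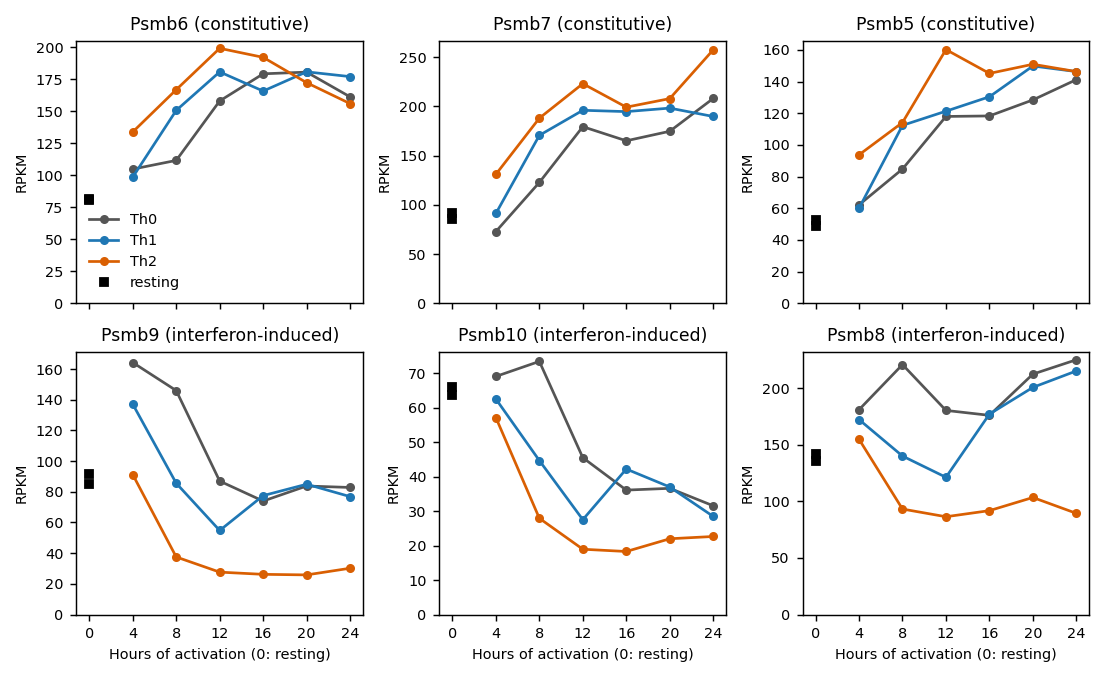
RPKM of the 3 constitutive catalytic subunits (top) and the interferon-induced subunit that replaces each (bottom) against hours of activation, with 1 line per condition and squares for the 2 resting libraries at 0. The constitutive genes rise in all conditions, while Psmb8, Psmb9 and Psmb10 run lowest in Th2.

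Partners of the proteasome were followed as a list of 31 genes (30 in the table, all tested), which holds the maturation factor Pomp, ubiquitin receptors and regulators. At 24 h 7 of the 30 had risen by 2-fold (12.7% of all genes) and 3 had fallen by 2-fold (17.4%), with a median change of 1.24-fold. Those that rose were Uchl5 (1.74 on the log2 scale), Uba6 (a 2.83-fold rise), Pomp (1.36), Rad23b (1.19), Txnl1 (1.14), Vcp (1.13) and Ubqln4 (1.12). Among those that fell were Zfand2a (-1.88) and Nfe2l2 (-1.19). Nfe2l1 was at 0.13 on the log2 scale against rest at 24 h (limma adjusted p = 0.332). At 12 h it had been higher than at rest, by 0.54 (limma adjusted p = 0.000957). By the adjusted p 7 partners were higher in Th2 than in Th0 (12.9% of all genes) and 1, Nfe2l2, was lower (16.7%). The 8 subunits of TRiC, a cytosolic chaperonin outside the proteasome, all rose by 2-fold at 24 h with a median of 3.06-fold, and all 8 were higher in Th2 than in Th0 by the adjusted p, with a median log2 difference of 0.38.

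Actinomycin libraries have 1 library per time and no test, and RPKM is a share of the RNA left in each library, so a ratio of 1 is a loss like that of the average gene. The library at 0 h had higher proteasome levels than the 16 h cultures, with 31 of 43 members above all 3 of them (27.8% of all genes were) and 2 below (Psmf1 and Psmg4; 39.3% of all genes). With median-of-ratios scaling 36 were above (34.7% of all genes) and 0 below (33.0%). The median ratio was 1.19 for members and 0.957 for all genes. From 0 to 4 h 11 of the 43 members were at least 1.5-fold lower (17.8% of 10571 genes) and 0 at least 1.5-fold higher (15.0%). Their median ratio was 0.827, against 0.999 over all genes. The change came late: the median ratio was 1.07 from 0 to 1 h, 0.948 from 1 to 2 h and 0.794 from 2 to 4 h, against 0.965, 0.979 and 1.06 over all genes. Without the 4 h library the span ended at 2 h, and 0 members were 1.5-fold lower within it. The median slope turned from -0.07 to 0.01 log2 units per hour, so the fall of the median rests on the 4 h library. In that shorter span 22 of 43 members had a positive slope. Some of the others were lower already at 2 h, such as Psmd12 at 0.704 and Psmd14 at 0.758 of the 0 h level.

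Within the 26S particle the ratio of 4 h to 0 h ran from 0.496 (Psmd12) to 1.23 (Psmd3), each from 1 library a time. Over all members, the chaperone Psmd5 had the steepest slope at -0.27 log2 units per hour, with 37.7, 28.2, 28.7 and 16.8 RPKM at 0, 1, 2 and 4 h. Psmd12, a lid subunit, followed at -0.26 with 116.6, 102.6, 82.1 and 57.8 RPKM, and Psmb7 at -0.24 with 268.9, 273.6, 248.1 and 143.7 RPKM. At the other end were PI31 and 2 activators, where Psmf1 had 19.5, 22.3, 19.8 and 27.3 RPKM (0.11), Psme1 532.9, 610.9, 605.3 and 670.3 RPKM (0.07) and Psme3 286.5, 331.9, 264.5 and 359.4 RPKM (0.06). Of the catalytic subunits, at 4 h Psmb7 was at 0.534 and Psmb5 at 0.659 of the 0 h level, and Psmb6 at 1.06. Over roles, the median ratio at 4 h was 0.748 in the alpha ring, 0.792 in the beta ring, 0.803 in the base ATPases, 0.748 in the non-ATPase subunits, 0.528 in the regulatory-particle chaperones, 0.855 in the core chaperones and 1.11 in the activators. With 4 time points an exact permutation of their order cannot give a two-sided p under 0.0833.

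**Figure D4:**
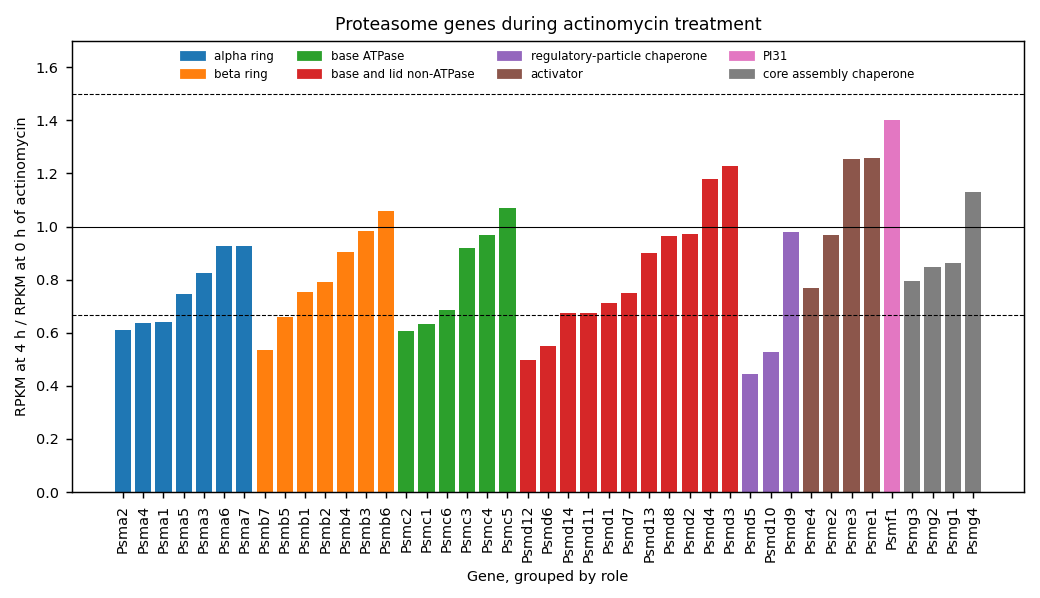
RPKM after 4 h of actinomycin divided by RPKM at 0 h (bars, 1 library each) for the 43 tested genes, grouped and coloured by role, with a solid line at 1 and dashed lines at the 1.5-fold limits. Bars run from 0.445 (Psmd5) to 1.40 (Psmf1), and 11 lie under the lower dashed line.

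The 2 tissue-restricted members were near the floor throughout. Psma8 had 0.538 and 0.477 RPKM at rest and at most 0.199 RPKM in any culture, and its reads, recovered from the steps, ran from 0 in 7 of 24 libraries to 19. A library with 0 reads allows up to 3.69 reads (95% exact Poisson interval, counting error only). Psmb11 had 0.691 and 0.790 RPKM at rest and 0.333 to 0.738 RPKM in the cultures, from 32 to 80 reads a library. Reads could be recovered for 9 of the 45 genes. Among the abundant ones they ran from 2191 (first resting library) to 10522 (Th2, 24 h) for Psma2 and from 905 (first resting library) to 4052 (Th2, 20 h) for Psmb5, so that counting error was within 6.73% of the lowest value of these 2 genes.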

How the data were processed

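RNA of 24 libraries was sequenced on an Illumina NextSeq 500. RPKM values were computed by the authors and deposited as 1 table; the submitters' processing notes name BWA and GRCm38, and the counting tool and annotation are not given in the sources used here. The depth, 17512385 to 33017133 reads, was recovered from the steps of low values, where 671 of 1054 single-transcript genes (63.7%) gave the same depth within 0.1%.

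Values were tested as log2(RPKM + 0.5) with limma 3.58.1 in R 4.3.3, with a trend in the prior variance, and p-values were adjusted by Benjamini-Hochberg over every gene whose mean reached 1 RPKM. This scale understates changes of low genes. Calls needed an adjusted p under 0.05 and a 2-fold change. Time points were fitted over 20 libraries, conditions over the 18 cultures with a term for each time, and ratios of subunits were compared by an exact sign-flip permutation test. Actinomycin slopes used log2(RPKM + 0.1). The fits were tested on simulated data. Python 3.11.15 with numpy 2.4.6, pandas 2.3.3, scipy 1.17.1 and matplotlib 3.10.9 was used, and promoter windows came from RefSeq.

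The genes, the lists of partners and TRiC subunits and the cell markers were chosen with earlier results of these data known. Every gene was counted by role. Values by library or full statistics were given for Psmb5, Psmb6 and Psmb7, the highest and lowest 24 h change of each role, the 3 largest differences of each pair of conditions, the 3 highest and 3 lowest actinomycin slopes and members under 1 RPKM. Genes beyond this were named after their values were seen. Alternatives were pseudocounts of 0.1 and 1, other filters and scalings, no trend, the condition as a term, haemoglobin genes left out, fewer libraries and each library group, time point or resting library left out. A fit without the Th2 culture at 24 h was added after seeing the data. The result of 1 partner gene is not reported here.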

Additional observations from a re-analysis of the deposited data

How the results depend on the processing

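No paired analysis was possible because the groups compared share fewer than 2 replicate numbers, and conditions were matched by time point instead. Counts of members past both thresholds at 12 to 24 h against rest were within 1.5 times under every alternative, except 20 at 12 h with quantile normalisation. That scaling moved the median of all genes by 0.11 to 0.17 on the log2 scale against rest. At 8 h the count of 14 was 7 with it, and ranged from 6 to 20 with a resting library or a condition left out. By the adjusted p alone the count at 4 h was 13, with 12 risen and 1 fallen (11.5% and 20.2% of all genes). At 8 h it was 38, with 37 risen and 1 fallen (2451 and 3036 of 10897 genes). From 4 to 8 h 31 rose (15.8% of all genes). Between Th2 and Th0 it was 26, with 24 higher and 2 lower in Th2 (12.9% and 16.7%). Between Th2 and Th1 it was 3, with 1 higher and 2 lower in Th2 (3.49% and 8.71%). The count at 2-fold from 4 to 8 h, 0, ranged from 0 to 2 with a condition left out, and the 31 by the adjusted p alone from 0 to 35. The 24 members higher in Th2 than in Th0 ranged from 9 to 30 with a time point left out, were 6 over 12 to 24 h and 7 in a fit of the 2 conditions, and 30 without the Th2 culture at 24 h. Members whose condition difference changed with time ranged from 0 to 4. Members lower after actinomycin ranged from 0 to 11 with a time point left out, and the median slope of -0.07 ranged from -0.11 without 0 h to 0.0087 without 4 h, where it turned in sign. With 1 library for each condition and time, differences between conditions at a single time point have no replicate, and all values are shares of the RNA in a library.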

Other observations

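The Th2 library at 24 h differed from the Th0 and Th1 libraries of the same time unevenly among members. Psmc6 was 0.60 higher on the log2 scale and Psme2 was the lowest. Across the 43 tested genes this difference and the log2 ratio of 4 h to 0 h of actinomycin had a Pearson r of -0.53, and over 8351 genes whose mean over the cultures reached 5 RPKM r was -0.23. This is a description over genes, which are not independent. The 2 sets of libraries have no sample in common, and no cause was tested.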
